A study of Mus musculus with 9 samples.

Results

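The syndecan and glypican genes of the mouse were followed in C2C12 myotubes depleted of 1 or the other splice isoform of the histone variant macroH2A1. The members are Sdc1, Sdc2, Sdc3 and Sdc4 (syndecans) and Gpc1, Gpc2, Gpc3, Gpc4, Gpc5 and Gpc6 (glypicans), taken by name, 10 of the 52780 genes in the count table. C2C12 is a single immortal line of mouse myoblasts that fuse into multinucleated myotubes when serum is withdrawn. All cells were collected on day 4 of differentiation, with 3 samples in each of 3 groups: control cells, labelled wild type by the submitters and called si Ctrl in the study's figures, cells with siRNA against macroH2A1.1 (si mH2A1.1) and cells with siRNA against macroH2A1.2 (si mH2A1.2), with siRNA at 10 nM. The knockdowns were transient and the RNA came from whole cultures, in which myotubes and unfused cells are mixed.

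Syndecans and glypicans are the main proteins that carry heparan sulfate at the cell surface. A syndecan crosses the membrane once and has a short cytoplasmic tail that binds scaffold proteins and kinases, whereas a glypican has no such tail and is held by a glycosylphosphatidylinositol anchor. Their heparan sulfate chains bind growth factors such as FGF2 and HGF, morphogens such as hedgehog proteins, and the extracellular matrix, and syndecans also act with integrins in adhesion. In muscle, syndecan-3 and syndecan-4 mark satellite cells, syndecan-1 is known to decline as myoblasts differentiate, and glypican-1 is known to take FGF2 away from its signalling receptor.

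The ends of the 4 syndecan coding sequences are shown because their last 4 codons encode the shared end of the tail, which binds PDZ domain proteins. Some of these proteins are among the partner genes described further on. Each is the last 87 bases of the coding sequence, stop codon included, in GENCODE M21 on GRCm38, written on the coding strand with the last 4 codons before the stop in capitals. Each lies within a single exon, the last of 5. The positions are chr12:8791721-8791807 (plus strand) for Sdc1-201, chr15:33032454-33032540 (plus strand) for Sdc2-201, chr4:130822723-130822809 (plus strand) for Sdc3-201 and chr2:164426086-164426172 (minus strand) for Sdc4-201.
Sdc1: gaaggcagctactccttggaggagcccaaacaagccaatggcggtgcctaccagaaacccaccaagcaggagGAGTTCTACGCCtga
Sdc2: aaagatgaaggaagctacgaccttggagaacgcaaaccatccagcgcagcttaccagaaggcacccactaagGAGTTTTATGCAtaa
Sdc3: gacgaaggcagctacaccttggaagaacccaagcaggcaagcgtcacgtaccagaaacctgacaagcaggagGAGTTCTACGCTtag
Sdc4: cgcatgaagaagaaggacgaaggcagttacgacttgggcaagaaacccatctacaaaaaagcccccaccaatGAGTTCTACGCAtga
Of the 12 bases in capitals, 9 were identical in all 4 genes, and of all 84 bases before the stop, 13 were. Over the 84 bases before the stop, compared without gaps, Sdc1 and Sdc3 were the closest pair with 57.1% identical bases, and the other 5 pairs shared 33.3% to 42.9%. Alike stretches at different distances from the stop were not lined up, so these shares can understate the likeness. The coding sequences give proteins of 311 residues for Sdc1, 202 for Sdc2, 442 for Sdc3 and 198 for Sdc4, so that the parts ahead of the shared end differ in length.

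The samples held 36924252 to 42223108 counts each, the authors' estimated reads per gene. Levels are given in CPM, counts scaled to the TMM-adjusted size of each library. The targeted gene H2afy, in which the reads of both isoforms are summed, was at 56.3, 62.35 and 61.0 CPM in control cells, 38.85, 30.0 and 30.9 CPM after si mH2A1.1 and 46.8, 47.2 and 43.2 CPM after si mH2A1.2, so all knockdown samples were below all control samples. Its log2 fold change was -0.85 (SE 0.11, adjusted p = 0.00331 by edgeR) after si mH2A1.1 and -0.39 (SE 0.11, adjusted p = 0.108) after si mH2A1.2. The cells had the RNA of myotubes, with Myh3, the embryonic myosin heavy chain, at 4305 to 8065 CPM and Myog, the myogenic factor myogenin, at 336.7 to 745 CPM. The 10 markers of leukocytes, endothelium, epithelium, bone, fat and glia summed to 1.47 to 2.84 CPM, and Epcam, Adipoq and Sox10 had 0 to 2 counts in any sample.

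Gpc1, Sdc2, Sdc4, Sdc1, Sdc3 and Gpc6 were expressed, and the other 4 glypicans were close to 0. Per kilobase of exon, the scale on which different genes can be set side by side, Gpc1 was the highest in control cells with 324 ± 19.9 CPM per kb (SD, n = 3), a level above that of 99.2% of the 19541 tested genes with a length. Sdc2 followed with 109.9 ± 14.6 CPM per kb. Sdc4 with 44.0 ± 12.4 and Sdc1 with 38.1 ± 4.78 CPM per kb were next, and these neighbours did not differ beyond their spread. Sdc3 held 13.3 ± 2.41 and Gpc6 2.62 ± 0.587 CPM per kb, the latter near the middle of all genes, with 48.1% of them lower. The order was the same after si mH2A1.1. After si mH2A1.2, Sdc1 with 56.4 ± 1.91 CPM per kb stood above Sdc4 with 52.4 ± 25.0, again within the spread of Sdc4.

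The clearest difference was between the knockdowns. Sdc1, Sdc2 and Gpc6 were lower after si mH2A1.1 than after si mH2A1.2, by 1.40-fold, 1.83-fold and 3.56-fold in the fit. After si mH2A1.2 against control cells, Sdc1 alone passed without a block, at the edge of the threshold (adjusted p = 0.0499 by edgeR). With the replicate number as a block, Sdc1, Sdc2 and Gpc6 were higher and passed (adjusted p = 0.0138, 0.0424 and 0.0182 by edgeR). Gpc1, the most abundant member, was lowest after si mH2A1.2. By edgeR with TMM, all 9 samples and no block, it passed in none of the comparisons. After si mH2A1.2 against control cells, DESeq2 called it (adjusted p = 0.00252), the only 1 of 17 alternative fits to do so. With the replicate number as a block it did not pass there (adjusted p = 0.0671 by edgeR). Between the knockdowns it passed in 5 of 17, DESeq2 among them (adjusted p = 0.00579). In these bulk samples, more RNA per cell and more cells of a type that expresses a gene cannot be told apart.

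**Figure D1:**
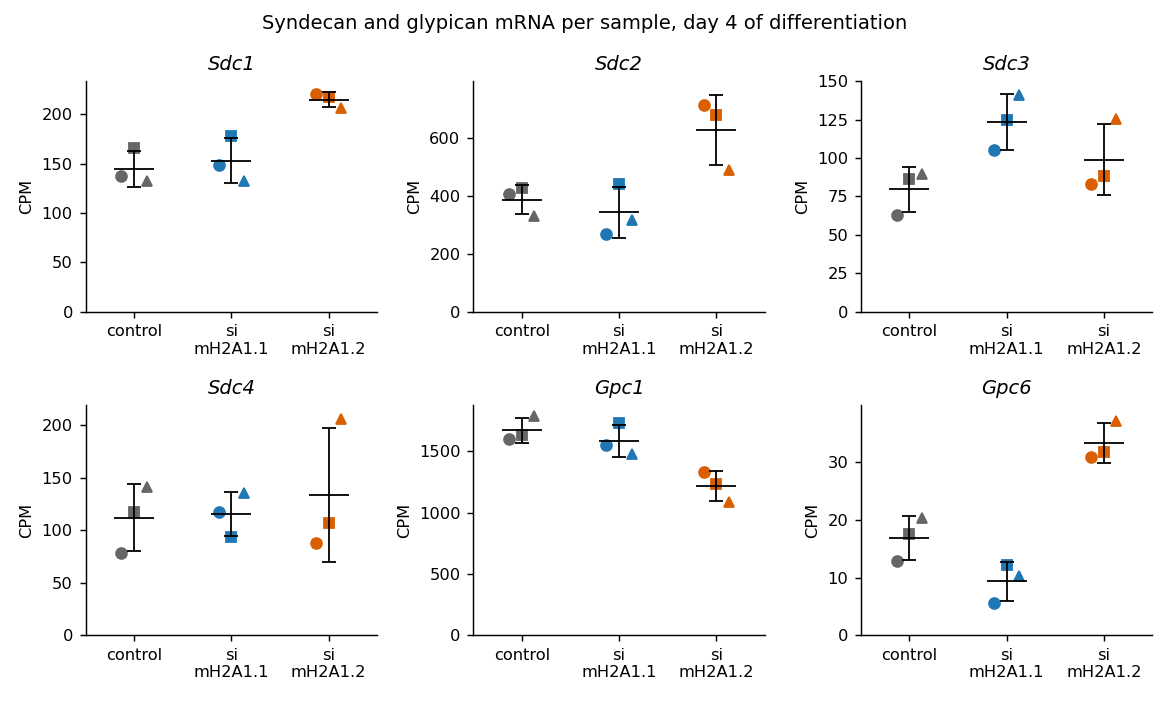
CPM (linear axes from 0) of the 6 expressed members in the 9 samples. Circles, squares and triangles are replicates 1, 2 and 3, horizontal bars the group mean and whiskers 1 SD (n = 3). Sdc1, Sdc2 and Gpc6 lie higher after si mH2A1.2 than in all other samples, and Gpc1 lies lower.

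Among the syndecans, Sdc1 (ENSMUSG00000020592, chr12:8771323-8793715 on GRCm38, plus strand) encodes syndecan-1, best known from epithelium and plasma cells. It was at 137, 166 and 132 CPM in the 3 control samples, at 148, 178 and 133 CPM after si mH2A1.1 and at 221, 217 and 207 CPM after si mH2A1.2. Control and si mH2A1.1 samples overlapped, and the si mH2A1.2 samples were above all 6 of them. The log2 fold change was 0.57 (SE 0.13) after si mH2A1.2 against control cells, which passed with an adjusted p of 0.0499 by edgeR. It was 0.08 (SE 0.13, adjusted p = 0.726) after si mH2A1.1 against control cells and -0.49 (SE 0.13, adjusted p = 0.0216) between si mH2A1.1 and si mH2A1.2.

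Sdc2 (ENSMUSG00000022261, chr15:32920723-33034935, plus strand) encodes syndecan-2, the family member of mesenchymal cells and fibroblasts. Its control samples held 406, 428 and 329.7 CPM, the si mH2A1.1 samples 270.0, 442 and 318 CPM and the si mH2A1.2 samples 714, 680.4 and 488.5 CPM. All si mH2A1.2 samples were above all others, with replicate 3 the lowest of them. Sdc2 was lower after si mH2A1.1 than after si mH2A1.2 by a log2 fold change of -0.87 (SE 0.20, adjusted p = 0.0139 by edgeR). Against control cells, the log2 fold change after si mH2A1.2 was 0.70 (SE 0.20), a value that did not pass with an adjusted p of 0.116, and after si mH2A1.1 it was -0.18 (SE 0.20, adjusted p = 0.599). With the replicate number as a block, Sdc2 passed after si mH2A1.2 against control cells (adjusted p = 0.0424 by edgeR).

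Sdc3 (ENSMUSG00000025743, chr4:130792537-130826319, plus strand), the syndecan of neurons and satellite cells, showed another order of the groups. It was at 63.0, 86.0 and 89.65 CPM in control cells, 105, 124.5 and 141 CPM after si mH2A1.1 and 82.9, 88.0 and 125 CPM after si mH2A1.2. All si mH2A1.1 samples were above all control samples, whereas the si mH2A1.2 samples overlapped both other groups. The log2 fold change of 0.64 (SE 0.19) after si mH2A1.1 against control cells narrowly missed the threshold, with an adjusted p of 0.0537 by edgeR. With the replicate number as a block, this comparison passed (adjusted p = 0.00446 by edgeR). The unblocked log2 fold changes were 0.31 (SE 0.19, adjusted p = 0.463) for si mH2A1.2 against control cells and 0.32 (SE 0.19, adjusted p = 0.239) between the knockdowns.

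Sdc4 (ENSMUSG00000017009, chr2:164424247-164443887, minus strand), the syndecan of focal adhesions and a partner of protein kinase C alpha, varied more within groups than between them. The control samples held 78.0, 117 and 141 CPM, the si mH2A1.1 samples 117, 93.7 and 136 CPM and the si mH2A1.2 samples 87.8, 107 and 206 CPM. All 3 groups overlapped. The sample numbered 3 was the highest of its group for Sdc4 in every group, and so it was for Sdc3. The log2 fold changes of Sdc4 were 0.05 for si mH2A1.1 against control, 0.25 for si mH2A1.2 against control and -0.21 for si mH2A1.1 against si mH2A1.2 (SE 0.31 each). The adjusted p values were 0.935, 0.756 and 0.674 by edgeR.

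Among the glypicans, Gpc1 (ENSMUSG00000034220, chr1:92831645-92860779, plus strand) encodes glypican-1, the glypican of skeletal muscle and nervous system. It was at 1596, 1631 and 1789 CPM in control cells, at 1555, 1730 and 1476 CPM after si mH2A1.1 and at 1330, 1233 and 1084 CPM after si mH2A1.2. All si mH2A1.2 samples were below all 6 others. Its log2 fold change was -0.46 (SE 0.13, adjusted p = 0.0935 by edgeR) after si mH2A1.2 against control cells, 0.38 (SE 0.13, adjusted p = 0.0504) for si mH2A1.1 against si mH2A1.2, and -0.08 (SE 0.13, adjusted p = 0.728) after si mH2A1.1 against control cells, none of which passed in this fit. Between the knockdowns it passed in 5 of 17 alternative fits. Among these were limma-voom (adjusted p = 0.0389), DESeq2's size factors in edgeR (0.0475) and edgeR once replicate number entered as a block (0.0428). After si mH2A1.2 against control cells it passed in 1 of 17, that of DESeq2. There it did not pass with the block (adjusted p = 0.0671 by edgeR) or with limma-voom (0.0757).

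Gpc6 (ENSMUSG00000058571, chr14:116925315-117976544, plus strand) encodes glypican-6, known for its part in hedgehog signalling and bone growth. It was the least abundant of the expressed members and the one with the widest differences. The control samples held 12.8, 17.45 and 20.3 CPM, the si mH2A1.1 samples 5.56, 12.2 and 10.2 CPM and the si mH2A1.2 samples 30.8, 31.7 and 37.1 CPM. The 3 groups did not overlap, after si mH2A1.1 lowest and si mH2A1.2 highest. The log2 fold change between si mH2A1.1 and si mH2A1.2 was -1.83 (SE 0.26, adjusted p = 0.00148 by edgeR). Against control cells, the values were -0.85 (SE 0.26, adjusted p = 0.059) after si mH2A1.1 and 0.98 (SE 0.26, adjusted p = 0.0811) after si mH2A1.2, and neither passed. With the replicate number as a block, both passed (adjusted p = 0.0130 and 0.0182 by edgeR).

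**Figure D2:**
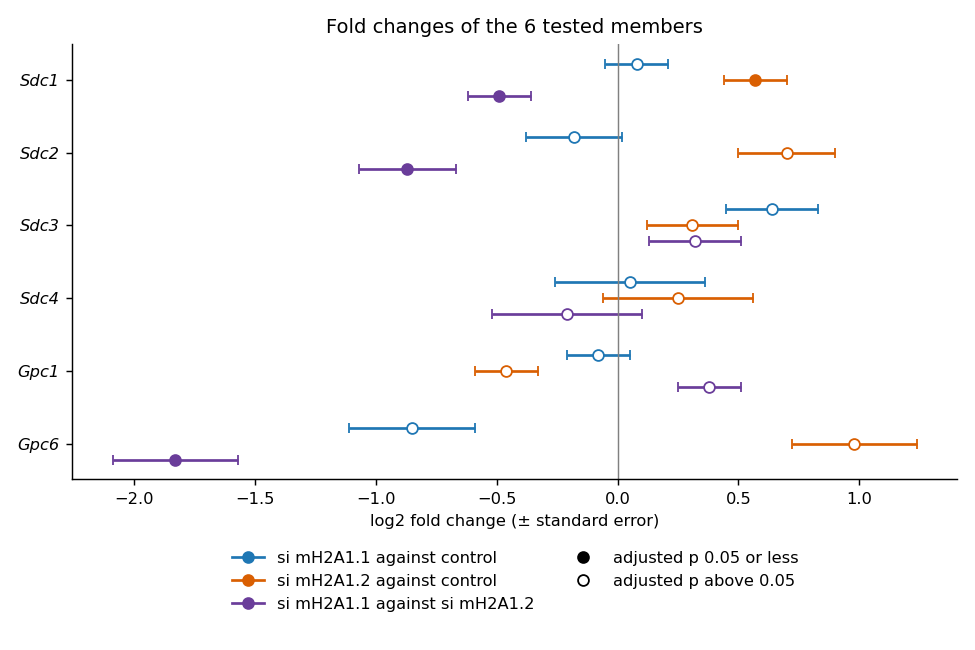
Log2 fold change of the 6 tested members in the 3 comparisons, with whiskers of 1 standard error from edgeR's quasi-likelihood fit. Filled points have an adjusted p of 0.05 or less. The filled points are Sdc1, Sdc2 and Gpc6 between the knockdowns and Sdc1 after si mH2A1.2 against control. Both knockdowns are compared with the same control samples.

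Counted over the members, 6 of 10 passed the edgeR filter on low counts and could be tested, among 19545 genes. After si mH2A1.1 against control cells, 0 of the 6 passed edgeR's quasi-likelihood test without a block, beside 11.1% of all genes tested. At an unadjusted p under 0.05 there were 2, Sdc3 and Gpc6, beside 29.6% of all genes, a share close to that of the members. They are also the 2 members whose samples did not overlap with control samples, as was so for 34.2% of all genes. DESeq2 called both of them, beside 16.7% of the genes it tested, and limma-voom called 0. With the replicate number as a block, edgeR called both, Sdc3 with 0.64 (adjusted p = 0.00446) and Gpc6 with -0.88 (adjusted p = 0.0130), beside 20.8% of all genes. With 1 sample left out, edgeR called Gpc6 without control replicate 1 or si mH2A1.1 replicate 2, and Sdc3 without si mH2A1.2 replicate 1 or 3, and 0 otherwise.

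After si mH2A1.2 against control cells, 1 of the 6 passed, Sdc1, beside 2.35% of all genes in either direction and 1.37% among those higher, and 4 had samples outside the range of the control samples (Sdc1, Sdc2 and Gpc6 higher, Gpc1 lower), beside 22.5% of all genes. In this comparison samples of the same replicate number deviated together, and with the replicate number as a block 3 members passed, beside 5.14% of all genes. Sdc1 had a log2 fold change of 0.58 (adjusted p = 0.0138), Sdc2 of 0.69 (adjusted p = 0.0424) and Gpc6 of 1.01 (adjusted p = 0.0182) in this blocked edgeR fit. DESeq2 called the same 3 members and Gpc1, beside 6.24% of its genes. Without the block, the call of Sdc1 was at the edge of the threshold: it was lost with limma-voom (adjusted p = 0.0503), with DESeq2's size factors (0.0543) and without control replicate 1 (0.181) or 3 (0.184), si mH2A1.1 replicate 1 (0.0552) or 3 (0.0602), or si mH2A1.2 replicate 1 (0.136), 2 (0.158) or 3 (0.0997).

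Between si mH2A1.1 and si mH2A1.2, 3 of the 6 passed, Sdc1, Sdc2 and Gpc6, all of them lower after si mH2A1.1, beside 22.5% of all genes in either direction and 10.5% in that direction. DESeq2 called these and Gpc1, beside 23.4% of its genes, and edgeR with the replicate block called these, Gpc1 and Sdc3, beside 29.0% of all genes. The samples of Sdc1, Sdc2, Gpc6 and Gpc1 did not overlap, beside 39.7% of all genes. Gpc6 passed in all 17 alternative fits, with log2 fold changes between -2.08 and -1.57. Sdc1 and Sdc2 each passed in 14 of 17 and lost the call without si mH2A1.1 replicate 1 (adjusted p = 0.0723 and 0.0559), si mH2A1.1 replicate 3 (0.0813 and 0.0541) or si mH2A1.2 replicate 2 (0.0738 and 0.0568). Markers of the state of the culture moved in the same comparison by edgeR: all 5 cell cycle genes tested were higher after si mH2A1.1 than after si mH2A1.2, with a median log2 fold change of 1.18 and summed levels of 376 to 791 CPM against 205.5 to 309 CPM (control cells 262 to 419.9 CPM). The 10 myotube genes were mixed, with 2 higher and 2 lower and summed levels of 11890 to 13380 CPM against 12190 to 15080 CPM (control cells 13610 to 19450 CPM). Of 5 tested markers of undifferentiated myoblasts, Myf5 and Pax7 were higher and Cd34 was lower after si mH2A1.1. The summed myoblast list was at 197 to 277 CPM after si mH2A1.1, 227 to 316 CPM after si mH2A1.2 and 229 to 261 CPM in control cells. Against control cells, Myog (-0.66, adjusted p = 0.0204) and Mymx (-0.82, adjusted p = 0.0221), which encodes a fusion protein, fell after si mH2A1.1. After si mH2A1.2, Tnnt3 (-0.96, adjusted p = 0.0280) and Myf5 (-0.84, adjusted p = 0.0422) fell in the comparison in which Sdc1 passed. There, Tnnt3 passed in 13 of 17 alternative fits, and Myf5 in 7 of 17 and in 0 of the 9 with a sample left out. Of the 5 cell cycle genes, 0 passed by edgeR or limma-voom in either comparison with control cells. After si mH2A1.1 their median was 0.75, 4 had an unadjusted p under 0.05, DESeq2 called 3 and the blocked edgeR fit 4. After si mH2A1.2 their median was -0.50, and each of these counts was 0. The part of these cell states in the differences of Sdc1, Sdc2, Sdc3 and Gpc6 was not tested.

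The make-up of the family per length stood apart in the si mH2A1.2 samples, while the sum over its members lay in a similar range in all groups. The 10 members together held 532 ± 24.6 CPM per kb in control cells, 513 ± 47.2 after si mH2A1.1 and 544 ± 31.0 after si mH2A1.2 (SD, n = 3), values within each other's spread. Gpc1 made up 61.4%, 58.1% and 63.2% of this sum in the control samples, 62.6%, 59.15% and 58.4% after si mH2A1.1, and 45.1%, 43.4% and 41.1% after si mH2A1.2. The 4 syndecans together made up 38.2%, 41.4% and 36.2% in control cells, 37.2%, 40.5% and 41.2% after si mH2A1.1, and 54.0%, 55.7% and 57.7% after si mH2A1.2. On this scale syndecan mRNA was above glypican mRNA in the 3 si mH2A1.2 samples and below it in the other 6. With the longest transcript as length the syndecans made up 49.9%, 51.6% and 53.8% in the si mH2A1.2 samples, so that replicate 1 fell just below the glypicans. Among the syndecans, Sdc2 gained the most after si mH2A1.2, with 32.5 ± 4.69% of the sum against 20.7 ± 3.20% in control cells. Gpc1 differed more, with 43.2 ± 2.00% against 60.9 ± 2.61%, and a lower share of Gpc1 raises the other shares by construction. These shares are a description of mRNA per length and were not tested.

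**Figure D3:**
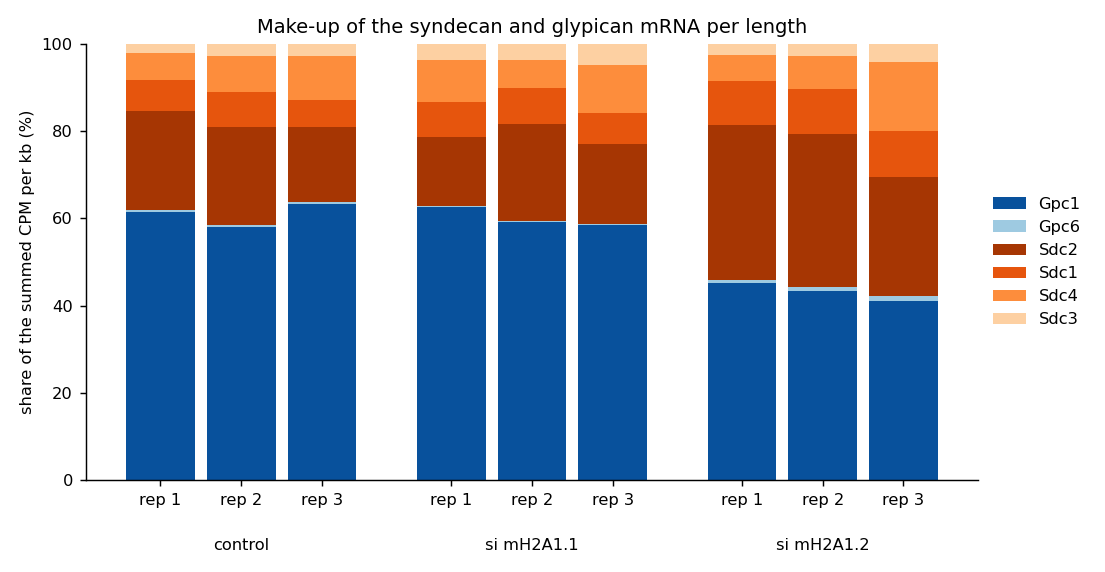
Share (%) of each member in the summed CPM per kb of the family, 1 bar per sample. Glypicans are blue and syndecans are orange to brown, and the 4 glypicans near 0 are too small to be seen. Gpc1, the dark blue part, holds 58.1% to 63.2% in control and si mH2A1.1 samples and 41.1% to 45.1% in si mH2A1.2 samples.

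Gpc2, Gpc3, Gpc4 and Gpc5 were at or near the limit of detection. A count of 3, taken as the floor, corresponded to 0.0711 to 0.0812 CPM per library. Gpc3, the glypican whose loss causes an overgrowth syndrome, had 4 counts in all 9 samples together, its X-linked neighbour Gpc4 had 5 and Gpc5 had 4, with no single sample above 2 counts. Levels below this depth were not detectable. Gpc2 (chr5:138273655-138280005, minus strand), a glypican of developing neurons, had 2, 0 and 0 counts in control cells, 19, 5 and 6 after si mH2A1.1 and 2, 3 and 5 after si mH2A1.2. The ratio of its summed counts between si mH2A1.1 and control cells, scaled to total counts, was 14.1 with an exact 95% interval of 3.59 to 122 that covers counting error only, and 19 of the 30 counts came from 1 library. The 6 glypicans include a pair of neighbours on chromosome 14, Gpc5 and Gpc6, whose genes lie 400.1 kb apart on the same strand, and of this pair Gpc6 was the one that passed the filter on low counts.

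Other genes of and around the heparan sulfate system were counted in 6 lists with 108 tested genes. After si mH2A1.1 against control cells 14 of them passed, 5 higher and 9 lower. After si mH2A1.2 against control cells 9 passed, all higher, and between the knockdowns 38 passed, 8 higher and 30 lower after si mH2A1.1. These are 13%, 8.33% and 35.2% of the tested genes, beside 11.1%, 2.35% and 22.5% of all genes. The lists were chosen with earlier results of these data known, so these shares are a description and no test of the lists. With the replicate block the si mH2A1.2 count was 14. With 1 sample left out, the 3 counts lay between 2 and 19, between 1 and 9 and between 24 and 38. Of the genes named below, Cask and Fgf13 (si mH2A1.1) as well as Cxcl12 (si mH2A1.2) passed against control cells in all 17 alternative fits. Mmp2 passed in 11 of 17 for either knockdown, Fgf2 in 11 when si mH2A1.1 was compared and in 14 when si mH2A1.2 was, and Cdon in 8 of the latter fits. Weaker calls against control cells were those of Hs3st1 (5 of 15 fits), Extl2 (8 of 17) and Gas1 (9 of 17) for si mH2A1.1 and of Mmp14 (10 of 17) for si mH2A1.2. Between the knockdowns, Mmp2, Mmp16, Hs6st1, Fgf2, Pdgfrb, Cxcl12, Boc and Cdon passed in all 17.

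The enzymes that build and sulfate the chains had 28 tested genes. After si mH2A1.1 against control cells 3 of the 28 passed, beside 11.1% of all genes. Extl2 rose by a log2 fold change of 0.37 and Ndst4, an N-deacetylase and N-sulfotransferase, by 1.15. Hs3st1, a 3-O-sulfotransferase at 2 to 14 counts per sample, decreased by 1.93. After si mH2A1.2 against control cells 0 passed by edgeR, 10 had an unadjusted p under 0.05 (beside 15.9% of all genes), DESeq2 called 2 and limma-voom 0. The median log2 fold change was 0.19, beside 0.0 over all genes. Between the knockdowns 9 of the 28 passed, beside 22.5% of all genes in either direction, with 2 higher and 7 lower after si mH2A1.1. Hs6st1, the main 6-O-sulfotransferase here, was at 61.8, 71.7 and 80.75 CPM in control cells, 55.2, 55.8 and 60.9 CPM after si mH2A1.1 and 107, 97.3 and 85.4 CPM after si mH2A1.2. Its si mH2A1.1 samples were below all others, and the log2 fold change between the knockdowns was -0.75 (SE 0.12, adjusted p = 0.00231 by edgeR). The corresponding values were -2.10 for Hs3st3a1, -2.14 for Hs3st1, -0.91 for Ndst3 and 1.93 for Hs3st5.

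Of the 15 tested genes for trimming and shedding, which includes the metalloproteinases that release syndecan outer parts, 2 fell after si mH2A1.1 and 3 rose after si mH2A1.2. Over all genes, 11.1% and 2.35% passed in these 2 comparisons with control cells. Mmp2, a secreted gelatinase, was at 98.6, 158 and 121 CPM in control cells, 46.0, 90.4 and 68.0 CPM after si mH2A1.1 and 264.5, 263 and 270.1 CPM after si mH2A1.2. The 3 groups did not overlap. Its log2 fold change was -0.88 (SE 0.23, adjusted p = 0.0350 by edgeR) after si mH2A1.1 and 1.08 (SE 0.23, adjusted p = 0.0404) after si mH2A1.2, each against control cells. Mmp16, a membrane-bound metalloproteinase, had the same directions with -0.83 and 0.97. Mmp14, the membrane-bound activator of Mmp2, rose by 0.65 after si mH2A1.2 and had a value of 0.11 (adjusted p = 0.586) after si mH2A1.1, each against control cells. Between the knockdowns 5 of the 15 passed, beside 22.5% of all genes. Mmp2, Mmp16, Mmp14, Pcsk6 and the inhibitor Timp3 were lower after si mH2A1.1, by log2 fold changes between -1.96 and -0.54.

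Other carriers of heparan sulfate, 8 tested genes, had 0 passing in both comparisons with control cells by edgeR. There, 5 had an unadjusted p under 0.05 after si mH2A1.1, beside 29.6% of all genes, and 1 after si mH2A1.2, beside 15.9%. DESeq2 called 4 and 0, and limma-voom 0 in both. Between the knockdowns 2 of the 8 passed, beside 22.5% of all genes. Spock2 (testican-2) with -1.56 and Tgfbr3 (betaglycan) with -1.65 were lower after si mH2A1.1.

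A list of proteins that bind syndecan tails or act downstream of them had 19 tested genes. Cask, a PDZ scaffold that binds syndecan tails, was at 69.1, 64.5 and 53.1 CPM in control cells, 97.6, 113 and 97.0 CPM after si mH2A1.1 and 86.5, 75.4 and 70.7 CPM after si mH2A1.2. Its si mH2A1.1 samples were above all others, with a log2 fold change of 0.72 (SE 0.12, adjusted p = 0.00786 by edgeR) against control cells. Cttn, the actin regulator cortactin, rose by 0.40, and Sdcbp2, a syntenin at 0.598 CPM on average after si mH2A1.1, decreased by 1.25. With Cask, these were 3 of the 19 in this comparison, beside 11.1% of all genes. After si mH2A1.2 against control cells 0 passed by edgeR, 6 had an unadjusted p under 0.05 (beside 15.9% of all genes), DESeq2 called 2 and limma-voom 0. Between the knockdowns 4 of the 19 passed, beside 22.5% of all genes. Ezr, Gipc1 and Cask were higher after si mH2A1.1 by 0.56, 0.32 and 0.40, and Prkca, the kinase that binds syndecan-4, was lower with -0.39. These calls held in 12 (Ezr), 10 (Gipc1), 10 (Cask) and 12 (Prkca) of 17 alternative fits.

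**Figure D4:**
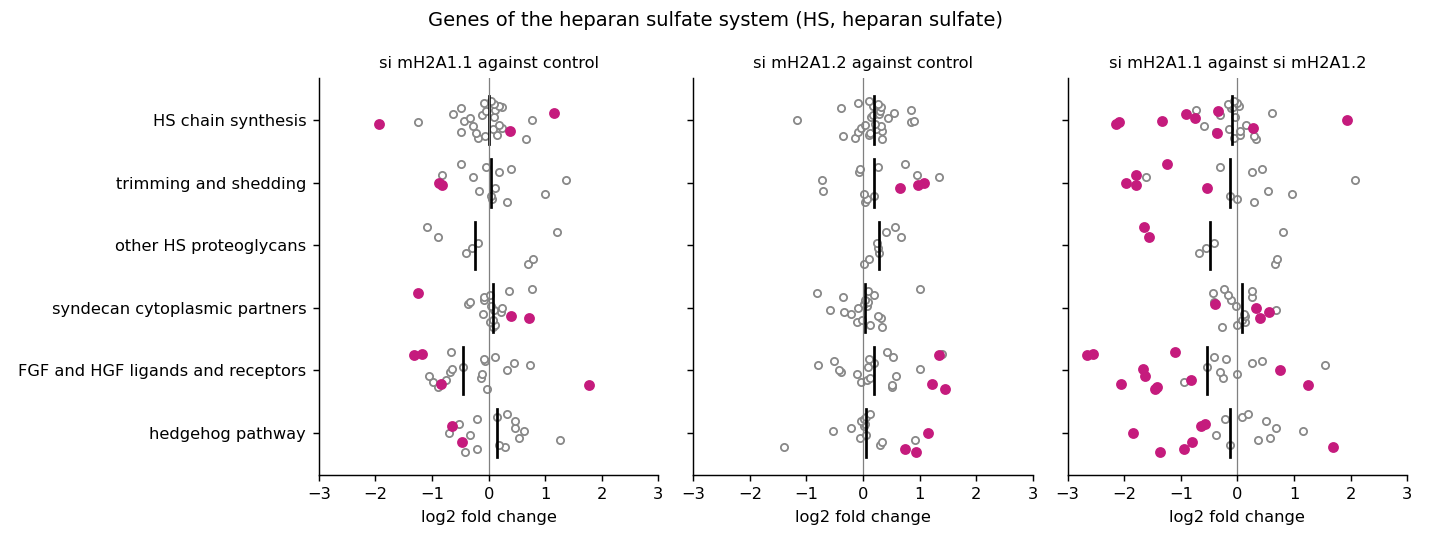
Log2 fold change of the tested genes of 6 lists around heparan sulfate in the 3 comparisons. Each point is a gene, filled points have an adjusted p of 0.05 or less by edgeR, and black lines are list medians. In the comparison of si mH2A1.2 and control all 9 filled points lie above 0, and between the knockdowns 30 of 38 lie below 0.

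Among 21 tested growth factors and receptors, a list of FGF and HGF genes that also holds other heparin-binding factors and the PDGF receptors, 3 fell and 1 rose after si mH2A1.1 against control cells. After si mH2A1.2, 3 rose. The shares over all genes were 11.1% after si mH2A1.1 and 2.35% after si mH2A1.2, in either direction. Fgf2, a growth factor that needs heparan sulfate to bind its receptor, was at 5.84, 9.14 and 9.95 CPM in control cells, 3.88, 5.38 and 4.68 CPM after si mH2A1.1 and 16.6, 21.6 and 19.9 CPM after si mH2A1.2. The 3 groups did not overlap, in the same order as for Gpc6. The log2 fold change of Fgf2 was -0.84 (SE 0.21, adjusted p = 0.0330 by edgeR) after si mH2A1.1 and 1.22 (SE 0.21, adjusted p = 0.0210) after si mH2A1.2. Pdgfrb, a PDGF receptor of mesenchymal cells, fell by 1.31 and rose by 1.34. Ptn (pleiotrophin) fell by 1.18 after si mH2A1.1, Fgf13, an intracellular FGF homologue, rose by 1.77 after si mH2A1.1, and Cxcl12, a heparin-binding chemokine, rose by 1.44 after si mH2A1.2. Between the knockdowns, 9 were lower and 2 higher after si mH2A1.1, beside 22.5% of all genes in either direction and 10.5% lower. The list median was -0.54, beside -0.01 over all genes.

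In the hedgehog list, with 17 tested genes, Kif7 with -0.64 and Gas1 with -0.47 were lower after si mH2A1.1 than in control cells. These 2 of the 17 stand beside 11.1% of all genes. The co-receptors Boc and Cdon, which also bind cadherins in myoblasts, and Hhat, the acyltransferase of hedgehog ligands, rose after si mH2A1.2 by 0.94, 0.75 and 1.15. They were 3 of the 17, beside 2.35% of all genes. Cdon was at 219.9, 278 and 333 CPM in control cells, 199.6, 266 and 256 CPM after si mH2A1.1 and 499, 449 and 447 CPM after si mH2A1.2. Its si mH2A1.2 samples were above all others. Between the knockdowns, 6 genes were lower and 1 higher after si mH2A1.1, beside 22.5% of all genes in either direction and 10.5% lower.

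The genes most alike to the 3 passing members were sought among 14380 genes of at least 1 CPM on average, by Pearson's r of log2 CPM over the 9 samples, which share libraries and groups. For Gpc6, Medag (r = 0.989) and Fbln2 (0.988) are given. For Sdc2 they were Cpne1 (0.978), Ccdc80 (0.978) and Leprot (0.977), and for Sdc1 they were Acvr1 (0.963), Lrig1 (0.952) and Ccdc112 (0.951). Fbln2, a matrix protein, was at 349.7 CPM on average in control cells, 206 CPM after si mH2A1.1 and 582 CPM after si mH2A1.2.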

How the data were processed

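The labels give 9 C2C12 samples in 3 groups of 3. Per the labels and methods, poly(A) RNA was sequenced as single reads of 50 bp, quantified with Salmon on GRCm38 and imported into DESeq2. The deposited table used here holds expected counts, Salmon's estimates given as whole numbers and not normalized. A second deposited table, normalized counts, was not used. The annotation release is not given in the sources used here, so names, positions and exon lengths came from GENCODE M21, which held 52762 of 52780 genes. Totals were 36924252 to 42223108 counts. Intervals and floors (3 counts) cover counting error only.

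The quasi-likelihood test of edgeR 4.0.16 (legacy form, R 4.3.3) was run with TMM, filterByExpr on the groups (19545 genes left) and Benjamini-Hochberg adjustment, in 1 model of 9 samples with 3 contrasts. A gene passed at an adjusted p of 0.05 or less. SE was derived from the F statistic. Level per length is CPM divided by the exonic bases of the gene in kb. Alternatives were DESeq2 1.42.0, limma-voom (limma 3.58.1), edgeR's newer form, DESeq2's size factors, other filters, the replicate block, 6 samples per fit, a stricter rule and leaving out each sample. The tests were tested on simulated data. A legend of the study speaks of independent replicates, and the labels do not say what a replicate number stands for. For control and si mH2A1.2, deviations from the group means of same-numbered samples correlated across genes with r of 0.33, 0.29 and 0.2, each above 0.1, so the number was taken as a pairing there. In the other comparisons not every pair was above 0.1, and blocked counts are given for them too. Over all 3 comparisons, r was 0.08 to 0.33 for same-numbered samples and -0.27 to 0.04 for the others. Members and gene lists were chosen with earlier results of these data known. Named were the members, H2afy, at most 5 genes per list and comparison with the smallest adjusted p among those passing, and the 3 genes most alike to each passing member. Of the latter, 1 gene is not reported here. Myh3, among the marker genes, and Epcam, Adipoq and Sox10 were named after their values were seen. Tables and plots were made with matplotlib 3.10.9, scipy 1.17.1, numpy 2.4.6 and pandas 2.3.3 in Python 3.11.15.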

Additional observations from a re-analysis of the deposited data

How the results depend on the processing

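The count of passing members moved with the tool and filter. With si mH2A1.1 against control cells (0 passing), it was 2 with DESeq2, 2 with the replicate block, 3 without a filter on low counts (Sdc3, Gpc6 and Gpc2), 1 with at least 10 counts in every sample, 1 with the 6 samples of the comparison alone, and 0 to 1 with a sample left out. With si mH2A1.2 against control cells (1 passing), it was 4 with DESeq2, 0 with limma-voom, 0 with DESeq2's size factors, 3 without a filter, 3 with the replicate block, 2 with the 6 samples alone, 0 under the stricter rule (adjusted p below 0.01, with 0.8 or more on the log2 scale in either direction), and 0 to 1 with a sample left out. Between the knockdowns (3 passing), it was 5 with the replicate block, 1 under the stricter rule and 1 to 4 with a sample left out. Over all genes, the block raised the called share from 11.1% to 20.8%, from 2.35% to 5.14% and from 22.5% to 29.0% in the 3 comparisons. DESeq2 gave 16.7%, 6.24% and 23.4%. Without a filter the share was 6.62%, 1.81% and 11.3%, out of 37475 genes in place of 19545. The numbers of genes called were then 2482, 680 and 4238, beside 2171, 460 and 4397 with the filter.

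The related lists, with 14, 9 and 38 passing genes, gave 25 and 17 with DESeq2 in the comparisons with control cells, 34 and 14 with the replicate block, and 1, 1 and 15 under the stricter rule. With a sample left out they gave 2 to 19, 1 to 9 and 24 to 38. The first was 3 without control replicate 2 or 3, 2 without si mH2A1.1 replicate 1, 4 without its replicate 3 and 7 without si mH2A1.2 replicate 2. The second was 2 without control replicate 1, 3 without control replicate 3, 5 without si mH2A1.1 replicate 3, and 2, 1 and 3 without si mH2A1.2 replicate 1, 2 and 3. The third was 24 without si mH2A1.1 replicate 3 and 25 without si mH2A1.2 replicate 2.

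Directions turned for values that had not passed. Sdc1 with si mH2A1.1 was -0.05 without si mH2A1.1 replicate 2 and reached 0.18 with another sample left out. Sdc4 with si mH2A1.1 was -0.16 without control replicate 1 and -0.08 without si mH2A1.1 replicate 3, and reached 0.23. Without si mH2A1.2 replicate 3, Sdc4 was -0.20 for si mH2A1.2 against control cells and 0.25 between the knockdowns, where other left-out samples gave up to 0.48 and down to -0.43. With the longest transcript as length, the share of Gpc1 was 64.4%, 63.4% and 46.9% in control, si mH2A1.1 and si mH2A1.2 cells, and Sdc1 stood above Sdc4 in all 3 groups. The syndecan share was 32.7% to 37.7% in control and si mH2A1.1 samples and 49.9% to 53.8% in si mH2A1.2 samples.

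For the other 2 comparisons, same-numbered samples correlated with r of 0.08 to 0.12, not above 0.1 in every pair, so the number was not taken as a pairing there. The library names run in sequence within each number, the labels do not say what a number stands for, and each sample correlated best with its own number in 18 of 18 comparisons, which is a hint from the data. There the block gave 2 passing members with si mH2A1.1 (Sdc3 and Gpc6) and 5 between the knockdowns (adding Sdc3 and Gpc1). The cause of these changes was not tested.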
